A study of Mus musculus with 2 samples.

Results

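The 10 genes described here encode the cytoplasmic actins (Actb and Actg1), the peptides that hold actin monomers (the beta-thymosins Tmsb4x and Tmsb10) and 6 actin-binding proteins (Pfn1, Cfl1, Coro1a, Lcp1, Capg and Gsn). They were chosen by gene symbol, and all 10 were found among the 55536 genes of the deposited tables and among the 12543 genes with enough counts in both libraries to be compared. The cells were mouse macrophages of strain C57BL/6J grown from bone marrow, whose sex and age were not collected, per the labels. All cells received 100 ng/ml Lipid A (the lipid part of bacterial lipopolysaccharide) for 12 h, then medium without it for 12 h, then a further 300 min of Lipid A at the same 100 ng/ml. Another field of the labels says lipoprotein A instead, so the agent's name is not settled. There was 1 group of 2 biological replicates with polyA-selected RNA, both listed under 1 donor but as separate biosamples. With no untreated group used here, no gene was tested for a response, and no p-value is given.

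Actin in a macrophage cycles between free monomers and filaments, and the filaments drive crawling, phagocytosis and the folding of the cell surface. Beta-thymosins bind monomers and keep them out of filaments, and profilin takes monomers and delivers them to the growing filament end. Cofilin severs ageing filaments, gelsolin and CapG block filament ends, plastin bundles filaments, and coronin 1A binds filaments in leukocytes and acts with the Arp2/3 complex, the nucleator of branched networks.

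The coding sequences of both thymosins and the starts of both actins are shown because these paralogs make up most of the transcripts described below. They come from the GENCODE M21 transcripts, and capitals mark the bases that differ within each pair.
Tmsb4x: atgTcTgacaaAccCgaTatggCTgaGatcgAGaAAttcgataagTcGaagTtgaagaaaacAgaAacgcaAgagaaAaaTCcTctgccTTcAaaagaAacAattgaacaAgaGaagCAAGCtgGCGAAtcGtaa
Tmsb10: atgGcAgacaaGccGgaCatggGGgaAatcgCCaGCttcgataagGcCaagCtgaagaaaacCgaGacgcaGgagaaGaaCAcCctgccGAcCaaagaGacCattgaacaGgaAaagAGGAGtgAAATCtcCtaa
Actb: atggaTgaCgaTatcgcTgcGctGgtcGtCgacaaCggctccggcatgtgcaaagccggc
Actg1: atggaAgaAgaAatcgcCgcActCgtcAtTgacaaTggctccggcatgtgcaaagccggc
The thymosin coding sequences are both 135 bases long and differ at 40 of them (70.4% identity). Of their 44 codons before the stop, 27 differ and 11 specify another amino acid. The actin coding sequences are both 1128 bases long and differ at 128 of them (88.7% identity). Of their 375 codons, 125 differ but only 4 specify another amino acid, and the last of these is codon 10, so all 4 lie in the 60 bases shown.

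Macrophage genes were high in both libraries. All 8 macrophage markers reached 100 TPM in both (TPM is a transcript level divided by length and scaled to a fixed total per library), from Itgam, the integrin alpha M gene, at 123 and 110.4 TPM to the lysozyme gene Lyz2 at 10292 and 11210.1 TPM in replicates 1 and 2. Of the 8 smooth muscle and fibroblast markers none reached 1 TPM in both libraries, Tagln was highest at 0.740 and 0.920 TPM, and Myh11, Cnn1 and Des had 0 counts. Expected counts totalled 50503160 and 46342327 after rounding.

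The 10 genes together held 34764 TPM in replicate 1 and 27054 TPM in replicate 2, which is 3.48% and 2.71% of all transcripts. Their median was 1384 TPM. All but Gsn, 9 of 10, reached 100 TPM in both libraries, where 11.7% of the genes with at least 1 TPM in both did so. At 1000 TPM or more in both stood 6 of 10, against 1.09% of those genes. Tmsb4x alone made up 56.3% and 44.9% of the summed TPM. Without it the other 9 genes came to 15194 and 14905 TPM, so almost the whole gap between the sums lay in Tmsb4x. Single genes among the 9 still differed, in opposite directions that offset in the sum. Actb, for example, was at 6825 and 5382 TPM, and Tmsb10 at 1825 and 2793 TPM.

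**Figure D1:**
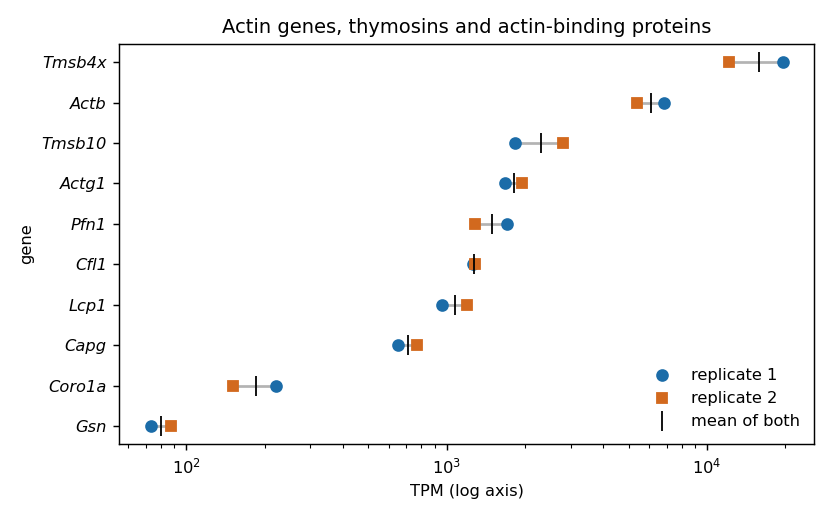
TPM of the 10 genes on a log axis, with circles for replicate 1, squares for replicate 2 and a bar for the mean of both. Tmsb4x stands highest at 19569.5 and 12149 TPM, and Gsn lowest at 73.3 and 87.2 TPM.

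Tmsb4x, the gene of thymosin beta-4 (ENSMUSG00000049775.16, mm10 chromosome X, 167207093 to 167209315, minus strand), had 19569.5 TPM in replicate 1 and 12149 in replicate 2, a mean of 15859 ± 5247 (SD, n = 2). By mean TPM its rank among all genes was 5. Its share of counts was 0.705% (95% Clopper-Pearson interval 0.703 to 0.707) in replicate 1 and 0.441% (0.439 to 0.443) in replicate 2. Replicate 1 was the higher library by 1.61-fold, and these intervals, which cover counting error only, were far apart. Tmsb10, the gene of thymosin beta-10 (ENSMUSG00000079523.8, chromosome 6, 72957347 to 72958748, minus strand), was at 1825 and 2793 TPM, a mean of 2309 ± 685 (SD, n = 2). It lay the other way, higher in replicate 2 by 1.54-fold. Tmsb4x transcripts thus outnumbered Tmsb10 transcripts by 10.7 to 1 in replicate 1 and by 4.35 to 1 in replicate 2.

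Actb, the beta-actin gene (ENSMUSG00000029580.14, chromosome 5, 142903115 to 142906754, minus strand), had 6825 TPM in replicate 1 and 5382 in replicate 2, a mean of 6103 ± 1020.1 (SD, n = 2). Actg1, the gamma-actin gene (ENSMUSG00000062825.15, chromosome 11, 120345690 to 120348542, minus strand), was at 1677 and 1954 TPM, a mean of 1815 ± 195 (SD, n = 2). Actb exceeded Actg1 in both libraries and held 80.3% and 73.4% of their summed TPM, a mean of 76.8% ± 4.88 (SD, n = 2). Thymosin transcripts outnumbered actin transcripts, by 2.52 to 1 in replicate 1 and 2.04 to 1 in replicate 2, a mean of 2.28 ± 0.339 (SD, n = 2). Counts not scaled to length run the other way, with a mean ratio of 0.663, since the leading transcript of Tmsb4x has 768 bases and that of Actb 1920.

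Pfn1, which encodes profilin 1 (ENSMUSG00000018293.4, chromosome 11, 70651850 to 70654644, minus strand), had 1701 TPM in replicate 1 and 1283 in replicate 2, a mean of 1492 ± 296 (SD, n = 2). Cfl1, which encodes the severing protein cofilin 1 (ENSMUSG00000056201.8, chromosome 19, 5490455 to 5495201, plus strand), was at 1262 and 1289 TPM, a mean of 1276 ± 19.1 (SD, n = 2). Relative to its level, Cfl1 had the closest pair of values of the 10 genes. Pfn1 exceeded Cfl1 by 1.35 to 1 in replicate 1, while in replicate 2 they stood at 0.995 to 1. Summed actin TPM was 4.998 and 5.72 times that of Pfn1.

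Lcp1, which encodes the leukocyte bundling protein L-plastin (ENSMUSG00000021998.16, chromosome 14, 75131101 to 75230842, plus strand), had 959 TPM in replicate 1 and 1194 in replicate 2, a mean of 1077 ± 166 (SD, n = 2). Coro1a, which encodes coronin 1A (ENSMUSG00000030707.15, chromosome 7, 126699773 to 126707787, minus strand), was at 221 and 151 TPM, a mean of 186 ± 49.4 (SD, n = 2). Replicate 1 was therefore the lower library for Lcp1 and the higher one for Coro1a. On the opposite strand Coro1a overlaps Bola2, at 48.4 and 27.2 TPM, and, with strand handling of the counts not given in the sources used here, reads of the overlap may not have been told apart.

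Capg, which encodes a protein that caps filament ends without severing (ENSMUSG00000056737.14, chromosome 6, 72544391 to 72562983, plus strand), had 650.3 TPM in replicate 1 and 771 in replicate 2, a mean of 711 ± 85.7 (SD, n = 2). Gsn, which encodes gelsolin, a severing and capping protein switched on by calcium (ENSMUSG00000026879.14, chromosome 2, 35256380 to 35307892, plus strand), was at 73.3 and 87.2 TPM, a mean of 80.3 ± 9.83 (SD, n = 2). Both were somewhat higher in replicate 2, and Capg exceeded Gsn by 8.87 and 8.84 to 1.

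In descending order of mean TPM the genes were Tmsb4x, Actb, Tmsb10, Actg1, Pfn1, Cfl1, Lcp1, Capg, Coro1a and Gsn. The values of neighbours did not overlap for Tmsb4x and Actb, Actb and Tmsb10, Cfl1 and Lcp1, Lcp1 and Capg, Capg and Coro1a, or Coro1a and Gsn. The ranges of Tmsb10 and Actg1, of Actg1 and Pfn1, and of Pfn1 and Cfl1 overlapped. Tmsb10 was nevertheless above Actg1 within each library, while Actg1 and Pfn1, and Pfn1 and Cfl1, changed order between libraries. Actg1 was below Pfn1 in replicate 1 by 23.9 TPM and above it in replicate 2 by 670.3 TPM.

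The distance between libraries was taken as the log2 ratio of counts, replicate 2 over replicate 1, after scaling the libraries to each other. It came to -0.69 for Tmsb4x, -0.64 for Coro1a, -0.41 for Pfn1, -0.35 for Actb and -0.08 for Cfl1. On the other side it came to 0.63 for Tmsb10, 0.31 for Lcp1, 0.20 for Capg, 0.18 for Gsn and 0.16 for Actg1. So 5 of 10 lay toward each library, as did 50% of all compared genes, but the ratio of the deposited Cfl1 TPM had the opposite sign, at 0.030. At least 1.5-fold apart were 3 of 10, against 13.2% of all 12543 genes, but the ratio of the deposited Coro1a TPM, -0.55, was short of that line, which leaves 2 of 10. Tmsb4x and Coro1a lay that far toward replicate 1, where 6.94% of all genes did, and Tmsb10 toward replicate 2, where 6.23% did. Of the 10, 0 were 2-fold apart, against 4.21% of all genes. The share of all genes at least as far apart was 9.64% for Tmsb4x, 11.0% for Coro1a and 11.5% for Tmsb10. Among the 1234 genes at 100 TPM or more in both libraries, 5.27% were 1.5-fold apart. Among the 115 at 1000 TPM or more in both, which include Tmsb4x and Tmsb10, 9.57% were. The median size of the log2 ratio was 0.33 for the 10 genes, 0.21 for all compared genes and 0.16 for those 1234.

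**Figure D2:**
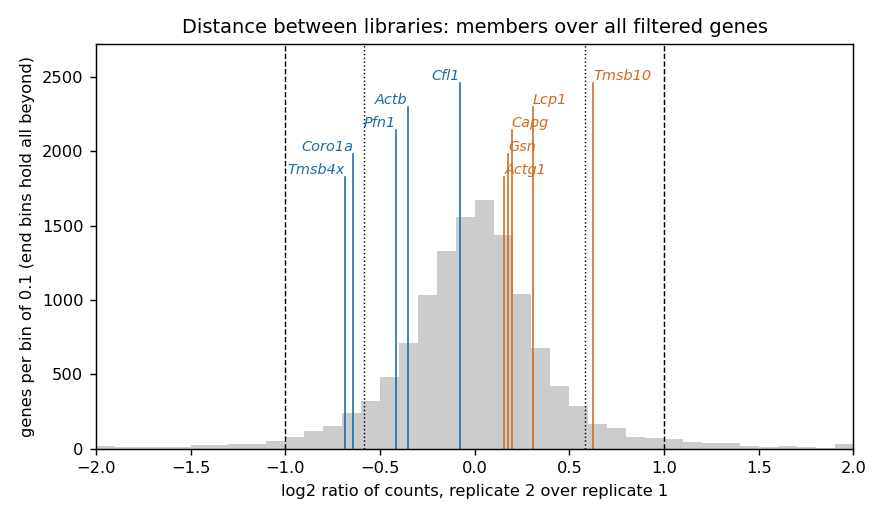
Log2 ratio of counts, replicate 2 over replicate 1, as a histogram of the 12543 compared genes (grey) with a line for each of the 10 genes, blue where higher in replicate 1 and orange where higher in replicate 2. Dotted and dashed lines mark 1.5-fold and 2-fold; Tmsb4x, Coro1a and Tmsb10 lie between them.

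Markers of other blood cells also differed between the libraries. Of 8 neutrophil markers, 7 had the higher TPM in replicate 1, and their sum was 67.9 TPM there and 4.46 TPM in replicate 2. The calprotectin genes S100a9, at 37.9 and 2.23 TPM, and S100a8, at 23.1 and 1.57 TPM, made up most of it, while the granule gene Ngp was at 4.96 and 0.0600 TPM, Mpo had 0 counts in replicate 2, and Retnlg had 0 counts in both. Of 7 platelet and megakaryocyte markers, 3 had enough counts to be compared. By TPM 6 of the 7 were higher in replicate 1, with sums of 259.9 and 118 TPM. The platelet chemokine gene Pf4 held nearly all of that, at 256 and 116 TPM. The part of these cell types in the Tmsb4x, Coro1a and Tmsb10 values was not tested, and in bulk RNA fewer cells of a type and less RNA per cell cannot be told apart. The T and B cell list, apart from Cd4 at 42.9 and 40.2 TPM, stayed under 1 TPM.

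In 4 of 7 gene families (the beta-thymosins, actins, profilins and plastins) the described genes held nearly all transcripts. Of the other beta-thymosin genes, Tmsb15a and Tmsb15b2 had 0 counts in both libraries. Among muscle actins, Acta1, Actc1 and Actg2 had 0 counts in both libraries, and Acta2, the smooth muscle actin, had 23 and 14 counts. A count of 0 allows up to 3 counts, or 0.0594 and 0.0647 CPM (counts scaled to the library total). Pfn1 held 99.96% and 99.9% of profilin TPM, and the testis gene Pfn3 had 0 counts. Lcp1 held 99.8% of plastin TPM in each library, with T-plastin, Pls3, at 2.14 and 2.40 TPM.

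The other 3 families were more mixed. Cfl1 held 89.8% and 90.1% of cofilin family TPM, next to destrin, Dstn, at 128 and 122 TPM and the muscle-type cofilin gene Cfl2 at 16.2 and 19.1 TPM. Among coronins Coro1a was not the highest. Coro1b, the coronin found in many tissues, had 355 TPM in replicate 1 and 342 in replicate 2, which is 1.61 and 2.26 times Coro1a, so it was higher in both libraries. Coro1c was at 82.4 and 72.2 TPM, Coro7 at 58.8 and 60.7 TPM, and Coro2a at 37.3 and 49.5 TPM, while Coro6 had 0 counts. Coro1a held 29.3% and 22.4% of coronin TPM. Its 1.56-fold distance between libraries was larger than that of Coro1b, at 1.08-fold, Coro1c, at 1.10-fold, Coro7, at 1.09-fold, or Coro2a, at 1.33-fold. Coro2b was farther apart in the same direction, at 2.69-fold, though on only 30 and 10 counts. In the gelsolin family Capg held 75.7% and 76.5% of the TPM. Flii, the flightless homologue, followed at 106 and 109 TPM, above Gsn in both libraries, then Vill at 23.7 and 34.8 TPM and supervillin, Svil, at 5.10 and 5.88 TPM. The gene of advillin, Avil, had 0 counts.

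**Figure D3:**
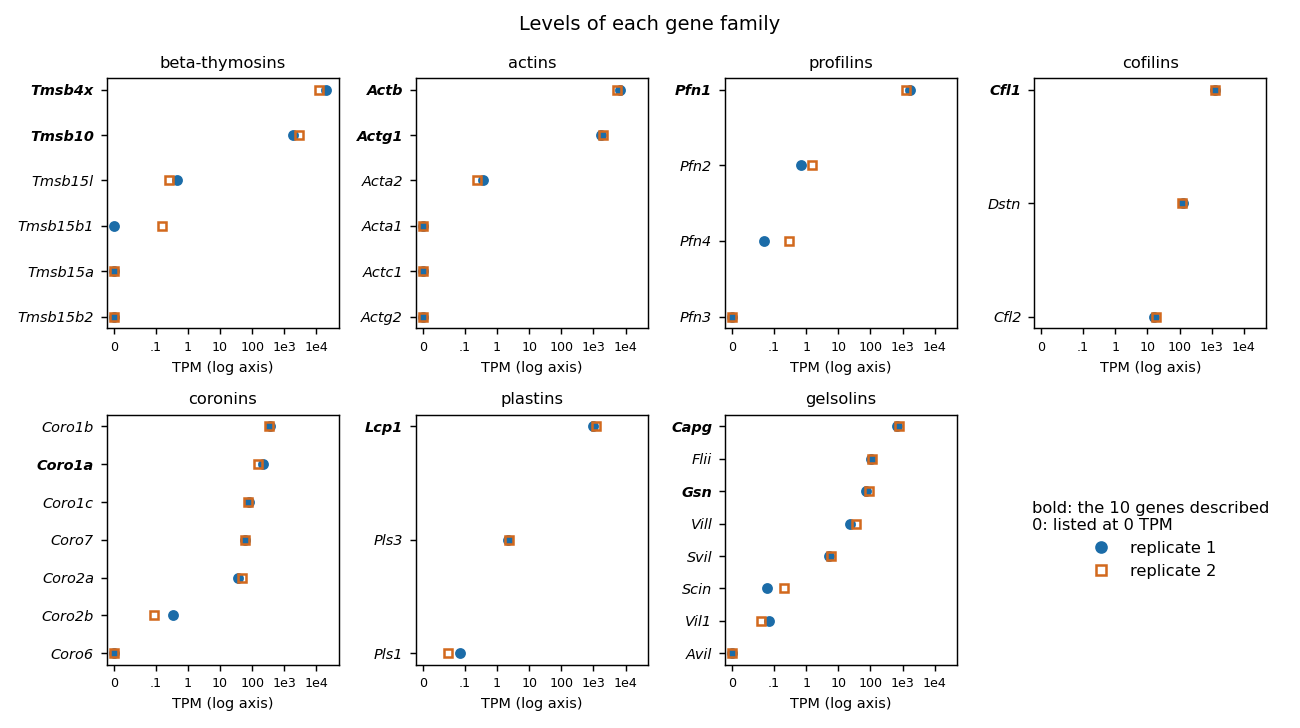
TPM of every gene of 7 families on log axes, with circles for replicate 1, squares for replicate 2 and genes with 0 TPM at the left edge. The described genes, in bold, are highest in 6 families, and Coro1b, at 355 and 342 TPM, is highest among the coronins.

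Transcript levels were deposited from a quantification of transcriptome alignments (first) and from another made from the reads (second). For Tmsb4x, Tmsb10, Actb and Pfn1 a single transcript held 98.1% to 99.4% of the gene's transcript TPM over both libraries and both quantifications. Actg1 differed between libraries. Its transcript Actg1-202 had 1653 TPM in replicate 1 and 934 in replicate 2, whereas Actg1-204 was at 5.02 and 1002 TPM. Actg1-204 therefore made up 0.299% and 51.3% of the gene in the first quantification, and 0% and 40.1% in the second. The sum of both transcripts was 1658 and 1936 TPM. Actg1-204 lies within Actg1-202: it lacks 124 bases at the 5′ end and 1 base at the 3′ end, shares the other 1827 and has the same coding sequence. The 5′ leader is thus almost all that tells these transcripts apart, and its read coverage was not analysed here.

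The longer transcripts of Tmsb4x and Gsn are shown because they extend the protein at its start, and capitals mark the start codon of the usual form.
Tmsb4x-203: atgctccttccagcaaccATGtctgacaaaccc
Gsn-201: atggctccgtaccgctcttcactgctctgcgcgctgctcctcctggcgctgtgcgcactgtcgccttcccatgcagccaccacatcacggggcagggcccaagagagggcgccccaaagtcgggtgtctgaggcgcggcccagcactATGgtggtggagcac
Tmsb4x-203 and Tmsb4x-202, which add 6 codons, together held 0.978% and 1.29% of Tmsb4x TPM, with Tmsb4x-203 at 159 and 131 TPM. Gsn-201 adds 49 codons ahead of the start of Gsn-205. Gelsolin is known in a secreted plasma form, which carries a signal peptide, and in a cytoplasmic form. Gsn-205 was at 63.4 and 71.2 TPM, and Gsn-201 at 0.210 and 0.250 TPM, with 18 and 20 counts. The longer form was thus a small part of Gsn in both libraries, 0.286% and 0.287%, and 1.08% and 0.903% in the second quantification. The shorter transcript Gsn-206 held 11.7% and 16.7%.

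Lcp1 had 2 main transcripts with identical coding sequences of 1884 bases and different first exons. Lcp1-209, which starts at position 75136332, was at 579 and 772 TPM, and Lcp1-206, which starts at 75190329, at 355 and 392 TPM. Lcp1-209 was the higher in both libraries, with 60.4% and 64.6% of the gene. The leading transcript of Cfl1, with 684 coding bases, held 73.9% and 70.2%, ahead of Cfl1-202 with 16.5% and 13.0% and Cfl1-204 with 9.15% and 16.7%. Coro1a-201, at 189 and 118.5 TPM, held 85.6% and 78.5% of Coro1a. The retained-intron transcript Coro1a-206 was at 10.6 and 20.98 TPM, so it was higher in the library where Coro1a as a whole was lower, though on only 129 and 238 counts. Capg-202 held 81.5% and 78.6% of Capg.

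**Figure D4:**
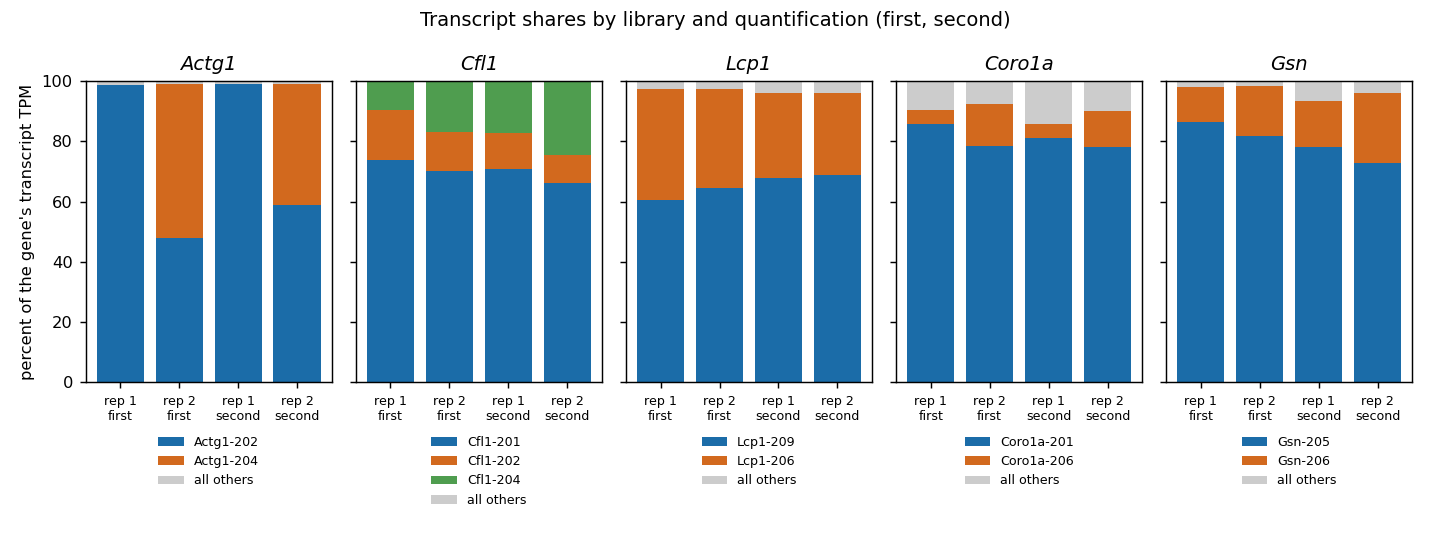
Percent of each gene's transcript TPM held by its main transcripts, stacked, for both libraries in the first and the second quantification. Actg1-204 takes 51.3% and 40.1% of Actg1 in replicate 2 and under 1% in replicate 1, while the other 4 genes keep the same leading transcript in all 4 bars.

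Several of these genes have near-copies elsewhere in the genome, which can draw or give reads. Of the 31-base windows of the leading transcript, the share also found in transcripts of another gene was 73.7% for Tmsb10, 57.1% for Actg1, 35.3% for Actb, 29.1% for Cfl1 and 24.3% for Lcp1. It was 2.12% for Capg, 0.963% for Pfn1, and 0% for Tmsb4x, Coro1a and Gsn. Not all of this reflects copies elsewhere, since windows on both strands were matched and genes overlapping the described gene were included. Such genes were Snx32 for Cfl1 (7.78% of windows), Gm15628 and Gm15629 for Lcp1 (7.37% and 0.472%) and Gm23419 for Actg1 (2.81%). For Actb the largest share, 22.7%, was with the protein-coding gene Lrrc58, at 13.0 and 13.8 TPM. The Tmsb10 near-copy with the most shared windows, Gm9844, was at 6.26 and 10.4 TPM. The processed pseudogene Gm12715, which shares 53.6% of the Actg1 windows, was at 47.0 and 89.3 TPM in the first quantification but at 0.674 and 0.757 TPM in the second. These levels were small beside those of Tmsb10 and Actg1 in both quantifications.

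Actin genes are textbook targets of serum response factor (SRF), which binds CArG boxes and is switched on by its MRTF coactivators when free actin runs low. The 60 bases around the only CArG box found in promoter windows of the described genes are shown because the SRF and MRTF genes are described next, with the box in capitals (RefSeq, GRCm38.p6, chr11:120348551-120348610, minus strand).
Actg1 promoter: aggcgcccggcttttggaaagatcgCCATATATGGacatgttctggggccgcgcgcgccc
The box begins at position 120348585, which is 90 bases before the RefSeq start of Actg1 (120348495) and 43 bases before the GENCODE start of Actg1-202 (120348542). The search, on both strands, covered windows around RefSeq starts for 9 of the 10 genes, all but Actb, and a CArG box was found in 1.63% of 32851 such windows of 300 bases. A match describes letters only. Srf was at 12.6 and 9.52 TPM and Mrtfa at 21.01 and 24.6 TPM, while Myocd, the muscle coactivator gene, had 0 counts.

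The wider actin machinery was described with 170 further genes in lists of the same 7 families and 10 other groups. Of these, 119 had at least 1 TPM in both libraries and 95 at least 10 TPM, which is 79.8% of the 119, against 58.9% over all genes at 1 TPM. Their median of 23.4 TPM lay below the median of the 10 described genes, 1384 TPM, and Vim was the only gene above Pfn1 by mean TPM. Between libraries 10 of the 130 compared genes were 1.5-fold apart (7.69%, against 13.2% of all genes). At 2-fold there were 2 (1.54%, against 4.21% of all genes), Coro2b and Pfn2, each with under 100 counts per library. The median log2 ratio of the 130 was -0.05.

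The Arp2/3 complex was the most abundant of these groups. In both libraries 9 of its 10 genes had at least 10 TPM and 7 had at least 100 TPM. Of all genes with at least 1 TPM in both, 58.9% and 11.7% reached these levels. The median was 450.0 TPM and levels ran from Arpc3 at 838 and 807 TPM down to Actr3b at 0.310 and 0.520 TPM. None of the 10 was 1.5-fold apart between libraries. That line was reached by 13.2% of all compared genes and by 5.27% of those at 100 TPM or more in both. With only 10 genes, a count of 0 therefore does not set the complex apart. Activators of the complex were led by the leukocyte gene Hcls1 at 533 and 559 TPM, and Wasf1 had 0 counts. Formins and Ena/VASP proteins, which make unbranched filaments, had a median of 6.16 TPM, with Evl highest at 414 and 363 TPM and Fmn2 at 0 counts. The capping list was led by Capza2, at 489 and 509 TPM, and Add2 had 0 counts.

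Among the partners of cofilin and profilin, Cap1, which recycles monomers, was highest at 403 and 420.0 TPM, and Cap2 lowest at 1 count and 0 counts. Cross-linkers and bundlers were led by Marcksl1 at 1050.04 and 1414 TPM, and Aif1l had 0 counts. Myl6, a myosin light chain gene, was at 1267 and 1207 TPM, and Myh14 had 0 counts. Vim, which encodes the intermediate filament protein vimentin, was at 1388 and 1629 TPM, while the adhesion gene Fermt2 was lowest of its list at 1 and 2 counts. 

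**Figure D5:**
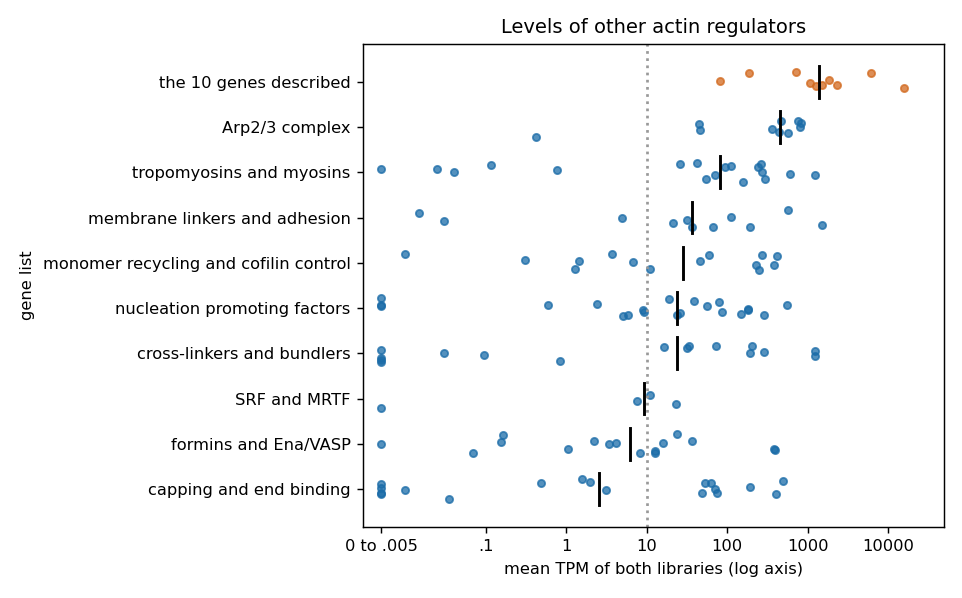
Mean TPM of each gene in 9 lists of other actin regulators (blue) and of the 10 described genes (orange) on a log axis, with black bars for medians and a dotted line at 10 TPM. The Arp2/3 complex has the highest list median, 450.0 TPM, below that of the described genes, 1384 TPM.

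For each described gene the most similar other gene was taken by the distance of log2(TPM + 1) over the 2 libraries, which states only that 2 values lie close. Gsn was nearest to Maea (73.3 and 86.8 TPM, distance 0.0064), Capg to Irgm1 (642 and 768 TPM, 0.020), Coro1a to Clec2d (224 and 151 TPM, 0.023) and Lcp1 to Tgtp2 (961 and 1220.4 TPM, 0.031). Actg1 was nearest to Cmpk2 (1738 and 1929 TPM, 0.054), Pfn1 to Ms4a7 (1618 and 1265 TPM, 0.075) and Cfl1 to the mitochondrial gene mt-Nd4 (1324 and 1323 TPM, 0.078). Actb was nearest to Gm28437, an annotated pseudogene, at distance 0.15, Tmsb10 to the noncoding AW112010 at 0.23, and Tmsb4x to the ribosomal RNA gene CT010467.1 at 0.35. The 3 most abundant genes thus had the largest distances.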

How the data were processed

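PolyA-selected RNA of 2 libraries was analysed. Per the labels and the README deposited with each sample, reads were mapped to mm10 with GENCODE M21. No source used here names the aligner, the quantifiers or the strand handling. The authors deposited expected counts, TPM and FPKM per gene and transcript (first quantification) and estimated counts with TPM per transcript (second), per the file headers. Second values were summed per gene.

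Expected counts were rounded to whole numbers. Genes were kept with filterByExpr, and libraries were scaled by TMM in edgeR 4.0.16 (R 4.3.3) with a prior count of 0.5 for log2 ratios. The ratio was tested on simulated data. DESeq2 1.42.0 gave alternative size factors. With 1 group there was no test, and each ratio compares 2 libraries, not conditions. If the replicates came from 1 animal, the spread may be technical. Intervals and the limit of 3 counts measure counting error alone, and no source used here records molecular identifiers. Coding sequences and windows of 31 bases were read from GENCODE M21 transcripts. Named genes were the 10 genes, family paralogs at 1 TPM or more or at 0 counts in both libraries, the extremes of each list, list genes 2-fold apart whose mean count reached 100, and the nearest gene to each; the results of 1 list and the lowest genes of 2 marker lists are not reported here. Members and lists were chosen with earlier results of these data known. Coro2b, Pfn2, Acta2, Srf and the markers Myh11, Cnn1, Ngp and Mpo lie outside this rule. So do near-copies, Lrrc58 and overlapping genes. All were named after their values were seen.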

Additional observations from a re-analysis of the deposited data

How the results depend on the processing

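No paired analysis was possible because there was 1 group. In the second quantification the log2 ratios of all 10 genes kept their direction and moved by less than 0.1, and so they did with DESeq2 size factors, library totals, no filter and a prior count of 5. With deposited TPM only the Cfl1 ratio changed sign, to 0.030, and the Coro1a ratio, -0.55, fell short of 1.5-fold; the cause was not tested. Levels in the second quantification were 0.894 (Tmsb4x) to 1.00 (Cfl1) times the reported ones. The thymosin to actin ratio became 0.663 with counts in place of TPM, because counts are not divided by length. Leaving out each library gave 2.04 to 2.52 for this ratio, 73.4% to 80.3% for the Actb share and 27054 to 34764 for the summed TPM. At a threshold of 100 TPM in place of 10, 48 regulators passed in place of 95. Without the filter on low counts, 5481 genes in place of 528 were 2-fold apart, as many more genes with few counts entered. The leading transcript shares of Lcp1 and Gsn became 68.2% and 75.5% in the second quantification. With 2 libraries, no spread between animals could be measured.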
